A study of Homo sapiens with 9 samples.

Results

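This account follows 10 genes of cellular iron and haem handling in K562 cells, a human erythroleukaemia line that makes haemoglobin. They were listed by name and function, with earlier results of these data known, and are 10 of the 58347 gene IDs in the authors' read count table. They are TFRC, SLC11A2, STEAP3, SLC25A37, SLC25A38, ABCB10, FTH1, FTL, FLVCR1 and HMOX1. All cells in all groups were K562-FIRE cells, which stably express dCas9 (a Cas9 that binds DNA without cutting it), an MS2-Fkbp(1x) fusion and SS18-Frb, each from an EF1a promoter. Rapamycin bridges Fkbp and Frb, which recruits SS18, a subunit of the BAF chromatin remodeller, to the site of the guide RNA (sgRNA). The study asked whether the cell's own BAF, recruited in this way, could raise HBG1 expression. The sgRNA was either directed at the HBG1 promoter or non-targeting, and cells received 10 nM rapamycin or the solvent DMSO for 24 h. There were 3 libraries each of HBG1 sgRNA with rapamycin and HBG1 sgRNA with DMSO, 2 of non-targeting sgRNA with rapamycin and 1 of non-targeting sgRNA with DMSO. Rapamycin also inhibits the growth kinase complex mTORC1 in any cell, whichever guide it carries.

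Cells take up transferrin-bound iron through the transferrin receptor TFRC. In the endosome STEAP3 reduces the iron and SLC11A2 carries it out. SLC25A37 takes iron into mitochondria, where ABCB10 binds and stabilises it and where SLC25A38 brings in glycine for haem synthesis. Spare iron is held in ferritin shells of heavy (FTH1) and light (FTL) chains, FLVCR1 is known for exporting haem, and HMOX1 breaks haem down. Red cell precursors direct most of their iron to haem. Iron levels act on several of these messenger RNAs through iron-responsive elements, short hairpins bound by the iron regulatory proteins ACO1 and IREB2. In a 5′ UTR the bound hairpin blocks translation, which read counts do not measure, and in the TFRC 3′ UTR it protects the messenger RNA from decay.

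The iron-responsive elements are shown because they separate these genes into those with the hairpin before and those with it after the coding sequence. GENCODE 29 transcripts (GRCh38) were searched on the transcript strand for a C, 5 bases, the loop CAGTGN and 5 bases that pair with the first 5, with G-T pairs allowed. Capitals mark the loop, and each site is 29 bases long, written 5′ to 3′. FTH1 and FTL each held 1 site in the 5′ UTR, and TFRC held 4 in the 3′ UTR. SLC11A2 held a 3′ UTR site with 4 of 5 pairs. ALAS2, the erythroid enzyme that starts haem synthesis and no member of the 10, held a 5′ UTR site joined across an intron.
FTH1 5′ UTR, chr11:61967574-61967602, minus strand: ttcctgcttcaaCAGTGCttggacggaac
FTL 5′ UTR, chr19:48965335-48965363, plus strand: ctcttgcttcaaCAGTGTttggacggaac
TFRC 3′ UTR, chr3:196050979-196051007, minus strand: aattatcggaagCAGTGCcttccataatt
TFRC 3′ UTR, chr3:196050575-196050603, minus strand: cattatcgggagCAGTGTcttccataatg
TFRC 3′ UTR, chr3:196050510-196050538, minus strand: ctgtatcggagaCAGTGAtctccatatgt
TFRC 3′ UTR, chr3:196050463-196050491, minus strand: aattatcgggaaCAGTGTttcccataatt
SLC11A2 3′ UTR, chr12:50988269-50988297, minus strand: agccatcagagcCAGTGTgtttctatggt
ALAS2 5′ UTR, chrX:55026015-55030969 with the intron, minus strand: ttcgttcgtcctCAGTGCagggcaacagg
A match with all 5 pairs was present in 286 of 19590 coding genes (1.46%), and one with at least 4 pairs in 2188 (11.2%), so a match alone is a description and not a working element.

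The libraries held 19797409 to 31619671 counts each. The summed HBG1 and HBG2 level was 726 CPM (reads per 1e6 counted reads, scaled by TMM, edgeR's correction for library composition) with the HBG1 sgRNA in DMSO (395 to 1017, n = 3). It was 4656 CPM with the HBG1 sgRNA in rapamycin (3818 to 5852, n = 3). With the non-targeting sgRNA it was 20870 CPM in rapamycin (n = 2) and 19460 CPM in DMSO (n = 1). All 15 erythroid markers had a mean of at least 1 CPM, against 4 of 8 megakaryocyte, 1 of 8 myeloid and 2 of 8 lymphoid markers, and PF4, a defining megakaryocyte gene, had no read. Nothing in the labels says that replicates came from separate cultures, so the p-values below measure the spread between these libraries, which may be technical.

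Of the 10 genes, 9 had enough reads to test, and their levels per exon length spanned a wide range. These levels are reads per kilobase of merged GENCODE exon, scaled to depth as CPM is (RPKM), given as the median of the 9 libraries. FTL stood highest at 3183 RPKM (2967 to 3509), followed by FTH1 at 692 (638 to 760) and TFRC at 98.3 (84.7 to 105). The ferritin chains were therefore the most abundant of the set in each library. SLC25A37 had a median of 50.9 RPKM (34.5 to 78.5), ABCB10 24.8 (22.3 to 29.8), SLC25A38 15.03 (12.8 to 17.6) and STEAP3 10.99 (9.82 to 12.9). FLVCR1 had 4.73 (4.20 to 5.41) and SLC11A2 4.65 (4.13 to 5.19). The ranges of FLVCR1 and SLC11A2 overlapped almost fully, and the order of these 2 changed between libraries. Those of SLC25A38 and STEAP3 met at their ends, but SLC25A38 was the higher in each of the 9 libraries, most narrowly in non-targeting rapamycin replicate 1 (12.8 against 12.5 RPKM). That order rests on the merged exon lengths, 2708 bases for SLC25A38 and 4562 for STEAP3. In CPM STEAP3 was the higher in each library, with medians of 50.1 against 40.7. SLC25A37 varied most, with its highest library 2.27 times its lowest, against 1.18 to 1.37 times for the other 8 tested genes.

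**Figure D1:**
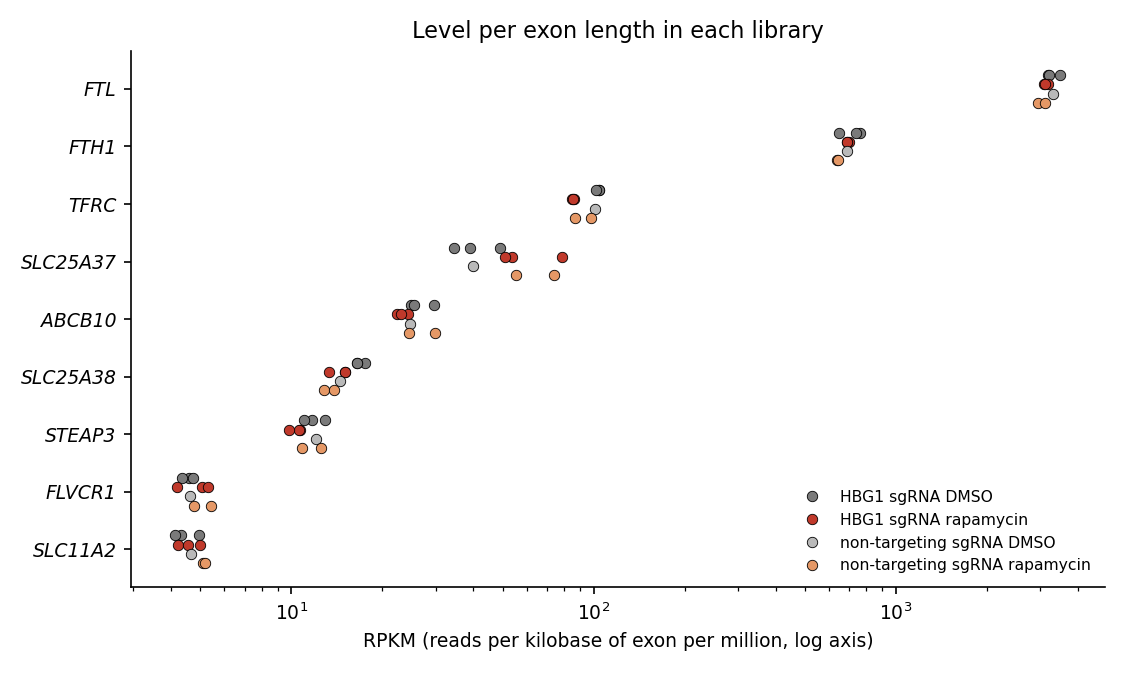
Level of each tested gene in RPKM (log axis), 1 point per library, coloured by group. FTL and FTH1 lie far to the right of the membrane transporters, and SLC25A37 shows the widest spread, 34.5 to 78.5 RPKM.

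With the HBG1 sgRNA, the receptor for iron entry was lower in rapamycin than in DMSO and the mitochondrial iron importer was higher, while the ferritin chains did not differ by an amount the test could resolve. TFRC was 1.21-fold lower and SLC25A37 1.49-fold higher, and these were the members that passed an adjusted p of 0.05 in edgeR's quasi-likelihood test over 23675 genes. Among all tested genes 2.75% were called higher and 4.05% lower, and with 9 genes 1 call in each direction does not set the members apart from that background. The 9 genes had a median log2 fold change of -0.08, against 0.02 over all tested genes, with 3 above 0 and 6 below. In bulk RNA a lower level per cell and fewer cells of a kind cannot be told apart. Replicate numbers were taken to pair the rapamycin and DMSO libraries, which is not shown for replicates 2 and 3. A fit with replicate number as a block, on the 6 HBG1 sgRNA libraries, called 7.43% of 20179 genes higher and 9.62% lower, and it called ABCB10 lower beside the same 2 members. In 5 of the 9 genes every rapamycin library lay below every DMSO library, an arrangement seen in 13.1% of all tested genes. In 1 of the 9 every rapamycin library lay above, as in 12.2% of all tested genes.

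**Figure D2:**
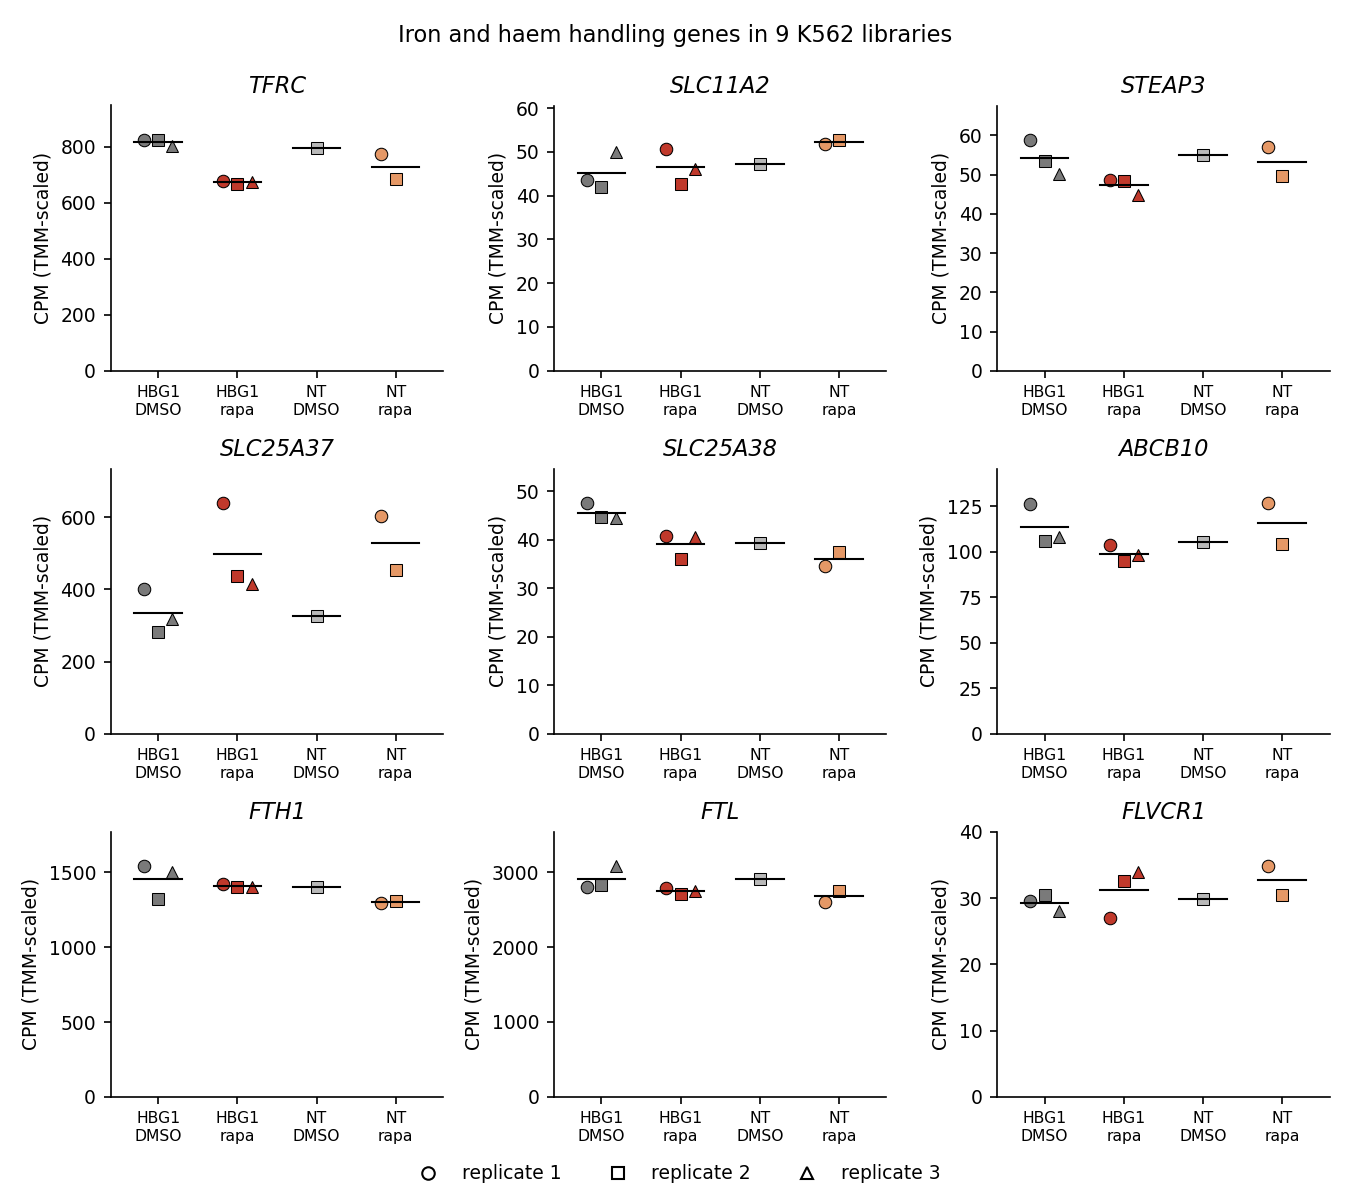
CPM (TMM-scaled, axis from 0) of each tested gene in the 9 libraries by group, with replicate number as symbol and the group mean as a line. NT is the non-targeting sgRNA. With the HBG1 sgRNA the rapamycin points of TFRC lie between 668 and 677 CPM, below the DMSO points between 805 and 825, and those of SLC25A37 lie above the DMSO points.

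TFRC (ENSG00000072274, chr3:196027183-196082189, minus strand), the receptor that takes up transferrin-bound iron, was measured at 677, 668 and 675 CPM in HBG1 sgRNA rapamycin replicates 1, 2 and 3. In HBG1 sgRNA DMSO it was at 824, 825 and 805 CPM. The groups did not overlap, and within each group the libraries lay close together. The mean was 673 ± 4.69 CPM (SD, n = 3) in rapamycin and 818 ± 11.2 CPM (SD, n = 3) in DMSO. TFRC thus had a log2 fold change of -0.28 (SE 0.07, edgeR quasi-likelihood adjusted p = 0.0183), and the 3 same-numbered pairs gave -0.28, -0.30 and -0.25. With the non-targeting sgRNA, TFRC was at 775 and 684 CPM in rapamycin and at 796 CPM in the DMSO library, so both rapamycin libraries were lower there too, replicate 1 only slightly. The call was lost when HBG1 sgRNA DMSO replicate 2 (adjusted p = 0.089), DMSO replicate 3 (0.0576) or rapamycin replicate 3 (0.0741) was left out, although the log2 fold change stayed between -0.29 and -0.27 without them.

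The endosomal partners of TFRC did not pass the test. STEAP3 (ENSG00000115107, chr2:119223831-119265652, plus strand), the reductase that converts ferric to ferrous iron, was at 48.7, 48.4 and 44.8 CPM in HBG1 sgRNA rapamycin and at 58.8, 53.4 and 50.1 CPM in DMSO. Each rapamycin library was below each DMSO library, with the DMSO values more spread. The log2 fold change was -0.20 (SE 0.09, edgeR adjusted p = 0.225, and 0.0872 with the replicate block). With the non-targeting sgRNA STEAP3 was at 57.0 and 49.5 CPM in rapamycin and 55.1 CPM in DMSO, on either side of it. An antisense gene, STEAP3-AS1, covers 10.96% of the STEAP3 exon bases, and how strand was treated in the counting is not given in the sources used here.

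SLC11A2 (ENSG00000110911, chr12:50979401-51028566, minus strand) carries ferrous iron out of the endosome. It was at 50.7, 42.7 and 46.1 CPM in HBG1 sgRNA rapamycin and at 43.6, 41.9 and 50.03 CPM in DMSO, so the groups overlapped. Its log2 fold change was 0.04 (95% interval -0.16 to 0.24, edgeR adjusted p = 0.848). The 2 non-targeting rapamycin libraries, at 51.9 and 52.7 CPM, were the highest of the 9, with 47.2 CPM in the non-targeting DMSO library. Leaving out HBG1 sgRNA DMSO replicate 2 or rapamycin replicate 1 turned the sign of this near-0 value (to -0.01 and -0.02).

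Among the mitochondrial transporters, SLC25A37 rose, while the values of SLC25A38 and ABCB10 were lower in rapamycin. SLC25A37 (ENSG00000147454, mitoferrin-1), the iron importer of the inner mitochondrial membrane in red cell precursors, was at 639, 437 and 415 CPM in HBG1 sgRNA rapamycin. In HBG1 sgRNA DMSO it was at 401, 281 and 318 CPM. Replicate 1 was the highest of its group under both treatments, and the lowest rapamycin library stood only slightly above the highest DMSO library. The mean was 497 ± 124 CPM (SD, n = 3) in rapamycin and 333 ± 61.2 CPM (SD, n = 3) in DMSO. The log2 fold change was 0.58 (SE 0.15, edgeR adjusted p = 0.0325), and the pairs gave 0.67, 0.63 and 0.38. With the replicate block the change was 0.57 (adjusted p = 6.41e-06). The non-targeting sgRNA libraries held 605 and 453 CPM in rapamycin and 325 CPM in DMSO, so rapamycin libraries were higher with either guide.

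The unpaired call of SLC25A37 rested on single libraries. Without HBG1 sgRNA rapamycin replicate 1, its highest library, the log2 fold change was 0.35 (edgeR adjusted p = 0.0848), and the call was also lost without DMSO replicate 2 (0.154) or DMSO replicate 3 (0.122). DESeq2 gave 0.58 with an adjusted p of 0.108. Marker genes moved unevenly. The summed erythroid marker level, mostly globin, was 38120 to 52740 CPM in HBG1 sgRNA rapamycin and 29890 to 40470 CPM in DMSO, so the ranges overlapped. All 15 erythroid log2 fold changes were above 0 in the unpaired fit. In the 3 pairs KLF1 gave only 0.07, 0.03 and 0.05, TAL1 0.06, 0.03 and 0.02, and EPOR 0.04, 0.03 and -0.06. The summed megakaryocyte level, mostly ITGA2B and TUBB1, was 90.4 to 113 CPM against 69.1 to 81.5 CPM. ITGB3 was lower in all 3 pairs (-0.56, -0.06 and -0.19), the 1 negative of 4 tested. In the unpaired fit 6 of 15 erythroid and 1 of 4 tested megakaryocyte markers were called higher and none lower. Among all tested genes these shares were 2.75% and 4.05%. The 6 erythroid markers called were GATA1, NFE2, SLC4A1, ALAS2 and the guide's own targets HBG1 and HBG2, which are also part of the erythroid sum. The part of these markers in the SLC25A37 result was not tested.

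SLC25A38 (ENSG00000144659, chr3:39383324-39397351, plus strand), the glycine carrier for haem synthesis, was at 40.9, 36.1 and 40.7 CPM in HBG1 sgRNA rapamycin and at 47.6, 44.6 and 44.6 CPM in DMSO. All rapamycin libraries were lower, but the log2 fold change of -0.22 (SE 0.09) did not pass, with an edgeR adjusted p of 0.167, or 0.0682 with the replicate block. The non-targeting libraries were at 34.7 and 37.6 CPM in rapamycin and 39.3 CPM in DMSO. The SLC25A38 values were lower in rapamycin with either guide, but with the non-targeting sgRNA this rests on 1 DMSO library. That library lay below HBG1 sgRNA rapamycin replicates 1 and 3. The lowest SLC25A38 value came from a non-targeting rapamycin library.

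ABCB10 (ENSG00000135776, chr1:229516582-229558695, minus strand), the inner-membrane transporter that binds SLC25A37, was at 104, 94.8 and 98.5 CPM in HBG1 sgRNA rapamycin and at 126, 106 and 108 CPM in DMSO. Each rapamycin library was below each DMSO library. The log2 fold change was -0.20 (SE 0.09, edgeR adjusted p = 0.226) in the unpaired fit. It was -0.19 with the replicate block, where it passed (adjusted p = 0.0439). In the non-targeting sgRNA ABCB10 was at 127 and 104 CPM in rapamycin and 105 CPM in DMSO, a log2 fold change of 0.13 that rested on rapamycin replicate 1 and was -0.013 without it. Its reads are uncertain, because 3 annotated ABCB10 pseudogenes held 36.8% to 52.3% of the combined reads. Summed with them, the log2 fold change was -0.13 (adjusted p = 0.307).

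**Figure D3:**
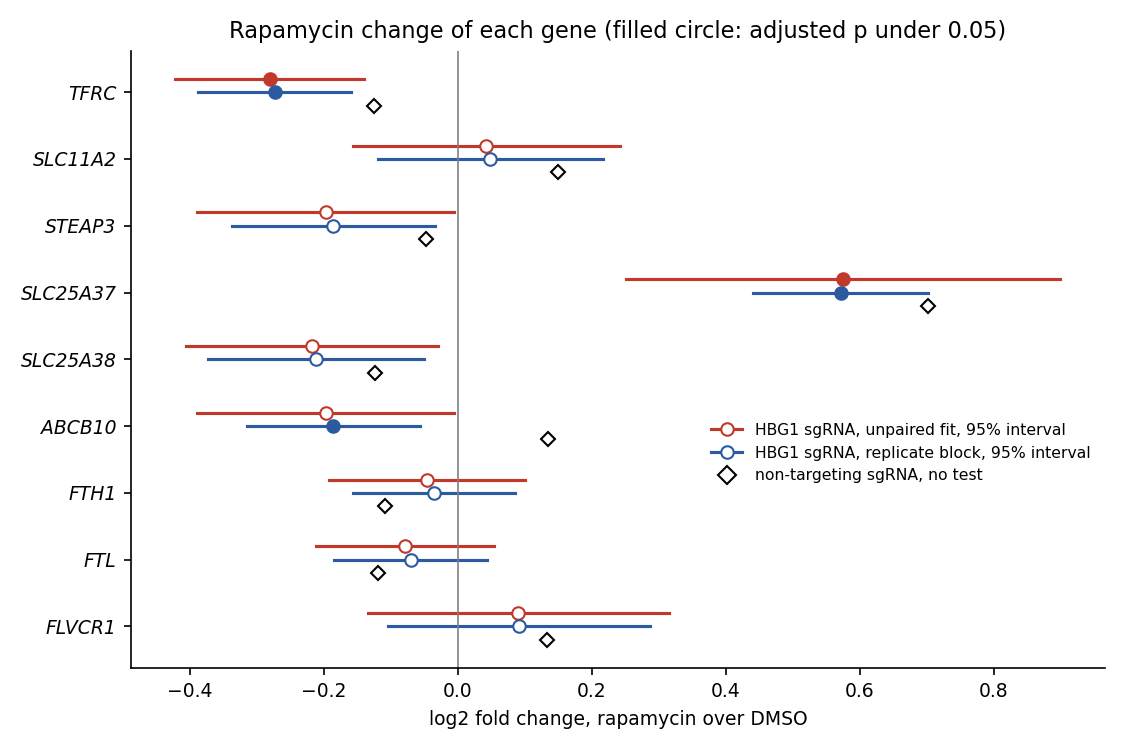
Log2 fold change of each tested gene, rapamycin over DMSO. Circles with 95% intervals are the HBG1 sgRNA in the unpaired fit (red) and with the replicate block (blue), filled where the adjusted p is under 0.05, and diamonds are the non-targeting sgRNA, which has 1 DMSO library and no test. TFRC lies below 0 and SLC25A37 above 0 in both fits, and the ABCB10 diamond (0.13) lies on the other side of 0 from its circles (-0.20 and -0.19).

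Ferritin transcripts showed no change that the test could resolve. FTH1 (ENSG00000167996, chr11:61959718-61967660, minus strand), the heavy chain that oxidises iron for storage, was at 1423, 1403 and 1405 CPM in HBG1 sgRNA rapamycin and at 1543, 1319.5 and 1504.5 CPM in DMSO. The rapamycin libraries fell inside the DMSO range, and the log2 fold change was -0.05 (95% interval -0.19 to 0.10, edgeR adjusted p = 0.765). With the non-targeting sgRNA FTH1 was at 1296 and 1308 CPM in rapamycin and 1404 CPM in DMSO.

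FTL (ENSG00000087086, chr19:48965301-48966878, plus strand), the light chain, was at 2794, 2712 and 2742 CPM in HBG1 sgRNA rapamycin and at 2807, 2823 and 3081 CPM in DMSO. The groups did not overlap, but the gap between them was small beside the DMSO spread. Its log2 fold change was -0.08 (95% interval -0.21 to 0.05, edgeR adjusted p = 0.525). The non-targeting libraries were at 2605 and 2744 CPM in rapamycin and 2904 CPM in DMSO.

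The ratio of FTH1 to FTL reads per kilobase had a mean of 0.216 and ran from 0.202 to 0.238 over the 9 libraries. Both ends of that range were HBG1 sgRNA DMSO libraries, and the other 7 libraries of all 4 groups lay between them. The size of this ratio depends on the merged exon lengths, 2030 bases for FTH1 and 878 for FTL. In plain reads the ratio had a mean of 0.5002 (0.4675 to 0.5496). The level of FTH1 itself is uncertain, since 62.41% of its exon bases (1267 of 2030) also belong to exons of BEST1 on the opposite strand. BEST1 was counted at 0.807 to 0.887 reads per FTH1 read, and reads of the 2 genes cannot be told apart without a stated strand setting. With BEST1 reads added to FTH1 the ratio per kilobase had a mean of 0.399. Of the combined reads, 25 annotated FTH1 pseudogenes held 0.900% to 1.34% and 16 FTL pseudogenes 0.339% to 0.464%. Treatment of reads that match both a gene and its copies is not given. These shares therefore do not show how far the copies affect either level or the ratio.

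FLVCR1 (ENSG00000162769, chr1:212858255-212899363, plus strand), known for moving haem out of the cell, was at 27.0, 32.5 and 34.0 CPM in HBG1 sgRNA rapamycin and at 29.5, 30.5 and 28.0 CPM in DMSO. The groups overlapped because rapamycin replicate 1 was the lowest of the 6 libraries. FLVCR1 had a log2 fold change of 0.09 (95% interval -0.13 to 0.31, edgeR adjusted p = 0.689). The non-targeting libraries were at 34.8 and 30.6 CPM in rapamycin and 29.8 CPM in DMSO.

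HMOX1 (ENSG00000100292, chr22:35380361-35394214, plus strand), the inducible enzyme that opens the haem ring and releases its iron, was almost without reads. It had 1 read in HBG1 sgRNA rapamycin replicate 2, 3 reads in replicate 3 and 0 in the other 7 libraries. A count of 0 allows up to 0.0972 to 0.155 CPM, taking 3 counts per library as the limit and for counting error only. HMOX1 was therefore not tested. Its neighbours on chromosome 22 were read in each library, TOM1 with 273 to 543 reads and MCM5 with 4101 to 6812.

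The guides were compared under rapamycin, 3 HBG1 sgRNA libraries against 2 non-targeting ones. None of the 9 genes was called by edgeR's quasi-likelihood test, which called 7 of 23675 genes in all (0.0296%), and DESeq2 called none of them either. At an unadjusted p under 0.05 the test passed 1 of the 9, ABCB10, and 1484 genes in all. ABCB10 had a log2 difference of -0.23 (HBG1 minus non-targeting, 95% interval -0.44 to -0.01, edgeR adjusted p = 0.773). The 9 differences ran from -0.23 to 0.12 for SLC25A38, whose interval was -0.09 to 0.33. For TFRC the difference was -0.12 (95% interval -0.27 to 0.04), and for SLC25A37 it was -0.09 (-0.45 to 0.27). Without non-targeting rapamycin replicate 1 these became -0.08 for ABCB10, 0.06 for SLC25A38, -0.02 for TFRC and 0.14 for SLC25A37, and without replicate 2 they were -0.36, 0.18, -0.20 and -0.28. These intervals are wide beside the rapamycin changes, so equal levels with the 2 guides are not shown.

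The interaction asked whether the rapamycin change itself differed between guides. It called 1 of 23675 genes (0.00422%), which was none of the 9, and DESeq2 called no gene at all. At an unadjusted p under 0.05 the counts were 678 genes and 0 of the 9. ABCB10 had the largest difference of the 9, -0.33 on the log2 scale (95% interval -0.68 to 0.02, edgeR adjusted p = 1.00). For TFRC it was -0.15 (-0.41 to 0.10) and for SLC25A37 -0.13 (-0.71 to 0.46). Without non-targeting rapamycin replicate 1 the 3 values were -0.18, -0.06 and 0.10, and without replicate 2 they were -0.46, -0.24 and -0.32. The non-targeting DMSO group is 1 library and is assumed to vary like the others. The rapamycin changes without a test in the non-targeting sgRNA were -0.13 for TFRC, 0.70 for SLC25A37, -0.12 for SLC25A38, -0.05 for STEAP3, -0.11 for FTH1 and -0.12 for FTL. In 8 of the 9 genes, all but ABCB10, they had the sign found with the HBG1 sgRNA. The share of all tested genes with the same sign was not counted, so this does not set the members apart. The count of 8 depends on single libraries: ABCB10 turned to -0.013 without non-targeting rapamycin replicate 1, and STEAP3 to 0.051 without replicate 2.

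Other genes of the pathway were taken as lists by function and described in the HBG1 sgRNA, rapamycin against DMSO. Among all tested genes 2.75% were called higher and 4.05% lower, or 7.43% and 9.62% with the replicate block. The list counts were not tested against these shares. Of 15 tested genes for iron uptake and trafficking, none was called higher and 1 was called lower. The median log2 fold change was 0.00 (7 above 0 and 8 below). The gene called was SLC39A14, which imports iron not bound to transferrin as well as zinc and manganese. It was at 20.2, 25.6 and 23.6 CPM in rapamycin and at 38.1, 49.4 and 47.5 CPM in DMSO, with no overlap, and its log2 fold change was -0.96 (SE 0.12, edgeR adjusted p = 2.85e-04). The non-targeting libraries were at 20.8 and 23.7 CPM in rapamycin and 46.9 CPM in DMSO. Its call held under all 19 alternatives run for it. The replicate block also called PICALM, an adaptor of clathrin-mediated uptake, lower.

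Of 8 iron sensing genes none was called higher and 1 was called lower, against 2.75% and 4.05% of all tested genes. The median was -0.04 (4 above 0 and 4 below). CUL1, the scaffold of the ubiquitin ligase in which FBXL5 marks IREB2 for decay, had a log2 fold change of -0.28 (edgeR adjusted p = 0.0354), a call lost in 10 of 19 alternatives, among them leaving out any HBG1 sgRNA library but DMSO replicate 1 or either non-targeting rapamycin library (adjusted p = 0.0549 to 0.165). With the replicate block CUL1, IREB2 and HIF1A were called lower and EPAS1 higher. These counts were 1 higher and 3 lower, against 7.43% and 9.62% of all genes tested with the block. IREB2, the iron regulatory protein 2, was at 103, 122 and 112 CPM in rapamycin and at 124, 142 and 148 CPM in DMSO. Its log2 fold change was -0.29 (edgeR adjusted p = 0.0678, and 0.00315 with the block). ACO1, iron regulatory protein 1, was at -0.10 (adjusted p = 0.666), and FBXL5 at 0.19 (adjusted p = 0.338). EPAS1, the hypoxia factor HIF-2α, was at 0.50 (adjusted p = 0.086, and 1.01e-04 with the block).

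Of 12 tested genes for iron storage, chaperones and export, 2 were called higher and none lower, with a median of -0.03. Over all tested genes the shares called were 2.75% higher and 4.05% lower. NCOA4, the receptor that delivers ferritin to lysosomes for breakdown, was at 358, 318 and 371 CPM in rapamycin and at 269, 272 and 253 CPM in DMSO. All rapamycin libraries were higher, the log2 fold change was 0.40 (SE 0.07, edgeR adjusted p = 0.00445), and the call held under all 19 alternatives. In the non-targeting sgRNA NCOA4 was at 375 and 357 CPM in rapamycin and 253 CPM in DMSO. HEPH, a copper ferroxidase that works with the iron exporter SLC40A1, had a log2 fold change of 0.30 (adjusted p = 0.0169), which was lost without replicate 2 or 3 of either HBG1 sgRNA group (adjusted p = 0.0603 to 0.0778). With the block GLRX3, an iron-sulfur carrier, was also called lower.

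Of 20 genes for iron-sulfur cluster assembly, none was called higher and 1 was called lower, with a median of -0.05 (7 above 0 and 13 below). Over all 23675 tested genes 2.75% were called higher and 4.05% lower, with 12389 above 0 and 11284 below. HSPA9, the mitochondrial chaperone that hands on new clusters and also imports proteins, was at 348, 327 and 323 CPM in rapamycin and at 511, 497 and 511 CPM in DMSO. The groups lay far apart, with a log2 fold change of -0.61 (SE 0.07, edgeR adjusted p = 1.32e-04), and all 19 alternatives kept the call. The non-targeting libraries were at 319 and 348 CPM in rapamycin and 523 CPM in DMSO. Among the genes that the block called were NFU1, which was higher, and CIAPIN1, which was lower.

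Of 9 haem synthesis enzymes 3 were called higher and none lower, against 2.75% and 4.05% of all tested genes. In 8 of the 9 the log2 fold change was above 0, as in 12389 of 23675 tested genes, and the median was 0.18. ALAS2 was at 218, 153 and 152 CPM in rapamycin and at 135, 93.4 and 99.4 CPM in DMSO. Replicate 1 was again the highest of each group, as for SLC25A37. The log2 fold change of ALAS2 was 0.67 (SE 0.15, edgeR adjusted p = 0.0127), a call lost without HBG1 sgRNA DMSO replicate 2 (0.0761) or 3 (0.0686). PPOX, which catalyses the step before iron insertion, was at 105, 76.1 and 80.1 CPM against 67.4, 46.1 and 53.7 CPM, a log2 fold change of 0.64 (adjusted p = 0.00941, and 0.0594 without HBG1 sgRNA DMSO replicate 2). UROS, an enzyme of the middle of the pathway, was at 0.36 (adjusted p = 0.0411), a call lost in 7 of 19 alternatives, which left out any HBG1 sgRNA library but DMSO replicate 1 or either non-targeting rapamycin library (adjusted p = 0.0502 to 0.179). The replicate block called 5 of 9 higher and none lower, adding ALAD (0.41, adjusted p = 0.0225) and UROD (0.19, adjusted p = 0.0253). With the block 7.43% of all tested genes were called higher and 9.62% lower. ALAS1, the form of the first enzyme found in all tissues, was the 1 value below 0, at -0.27 (adjusted p = 0.16). FECH, which inserts iron, was at 0.12 (adjusted p = 0.616). ALAS2 is itself an erythroid marker. The ranges of the erythroid and megakaryocyte sums given with SLC25A37 also lay higher in rapamycin, the erythroid ones with overlap. The part of these markers in the haem synthesis result was not tested.

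Of 17 tested genes for haem transport and breakdown 1 was called higher and none lower, with a median of 0.04. Over all tested genes the shares were 2.75% higher and 4.05% lower. FAM210B, a mitochondrial membrane protein that aids iron import during red cell maturation, was at 156, 120.5 and 125 CPM in rapamycin and at 103, 98.9 and 90.2 CPM in DMSO. The groups did not overlap, and the log2 fold change was 0.46 (SE 0.10, edgeR adjusted p = 0.0094, and 0.056 without DMSO replicate 3). Among the genes that the block called were FAM210B, which was higher, and PGRMC2, which was lower. The BACH1 and NRF2 system sets the level of HMOX1 and FTH1 in stressed cells. Of its 14 genes 1 was called higher and 1 lower, with a median of -0.15. MAFF, a small MAF partner of both factors, had a log2 fold change of 0.62 (adjusted p = 0.036), which was lost without any 1 HBG1 sgRNA library but DMSO replicate 3, without either non-targeting rapamycin library and with the 2 groups alone (adjusted p = 0.0514 to 0.118). SLC7A11, the cystine importer, was at 15.9, 16.6 and 15.3 CPM against 31.1, 26.0 and 31.3 CPM, a log2 fold change of -0.89 (adjusted p = 3.06e-04). SLC7A11 is also known as a target of the amino acid response, and its call held under all 19 alternatives. With the block this list had 1 higher and 4 lower, the latter SLC7A11, KEAP1, TXNRD1 and ME1. The shares of all genes tested with the block were 7.43% and 9.62%.

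**Figure D4:**
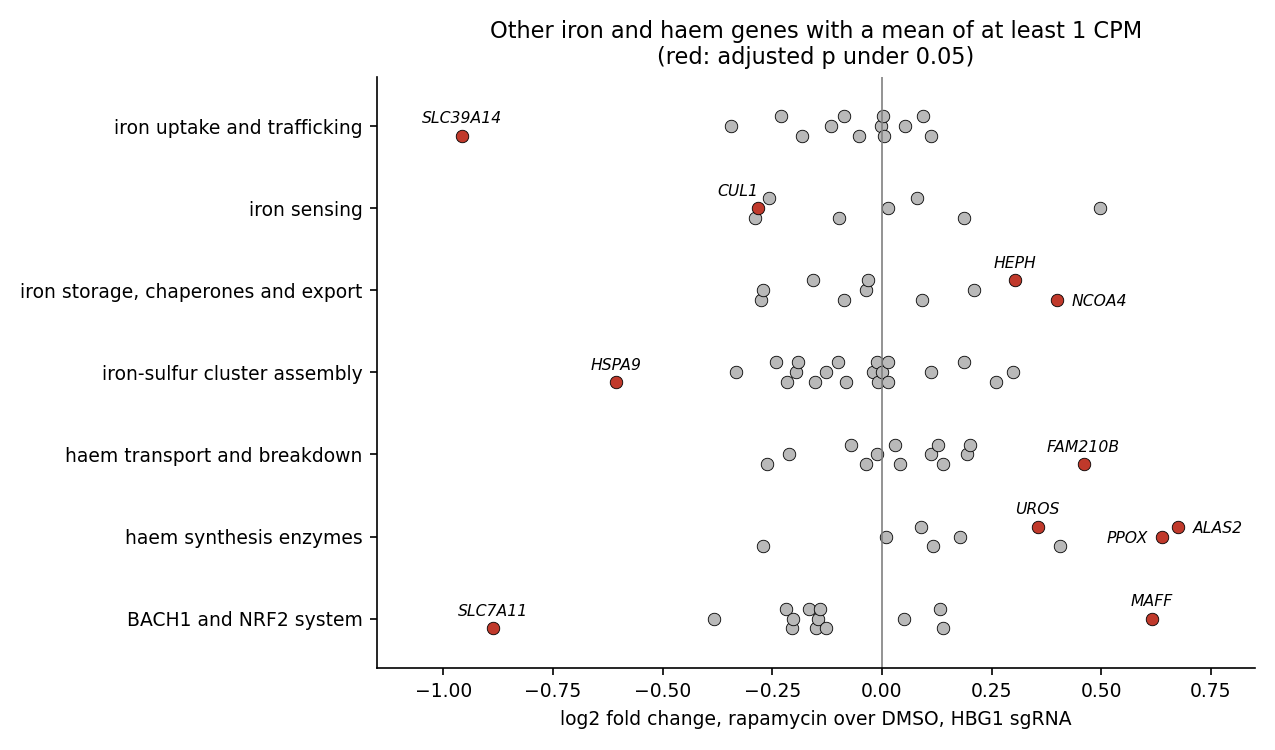
Log2 fold change, rapamycin over DMSO with the HBG1 sgRNA, of the 87 list genes with a mean of at least 1 CPM, 1 point per gene and 1 line per list. Red points with names passed an adjusted p of 0.05 in the unpaired edgeR fit; ALAS2 (0.67) and PPOX (0.64) lie farthest right and SLC39A14 (-0.96) and SLC7A11 (-0.89) farthest left.

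Promoter windows were searched in the RefSeq table (GRCh38.p14), which gave 300 bases around the start for 7 of the 10 genes. The motif AGATAA, which the erythroid factor GATA1 binds, was found on either strand in 1 of 4 SLC11A2 windows and in no window of the other 6 genes, against 10.3% of 35116 windows. CACGTG, an E-box, was found in SLC25A38 alone (7.3% of windows), and TGACNNNGC, the antioxidant response motif bound by NRF2 and BACH1, in none of the 7 (13.3% of windows). Nothing about a factor's binding follows from these letters.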

How the data were processed

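Poly-T selected RNA of K562-FIRE cells gave 9 libraries, made with NEBNext Ultra reagents according to the extract protocol. What the authors deposited is a single table of raw gene counts, with Ensembl IDs. The submitters' processing notes list STAR 2.7.3a, featureCounts, Subread 2.0.0, R 4.1.2, limma 3.34.9, edgeR 3.24.0 and GRCh38. Strand setting and treatment of multi-mapping reads are not given in the sources used here. Of the gene IDs, 58039 (99.47%) matched GENCODE 29, which gave symbols, exon lengths and positions.

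The test was run in edgeR 4.0.16 under R 4.3.3: filterByExpr (minimum count 10, 23675 genes kept), TMM factors of 0.977 to 1.02, and 1 quasi-likelihood fit of 4 group means over 9 libraries. Genes were called at a Benjamini-Hochberg adjusted p under 0.05 over all tested genes. CPM and RPKM were computed here from the counts, and same-numbered pairs were compared as log2 CPM with 0.5 added. The script was tested on simulated data. Sample titles gave each library its group and number. A non-targeting comparison in DMSO rests on 1 library and has no test. No replicate pair was a repeat of 1 library (chi-square per gene 4.74 to 18.6).

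Over 11668 genes, deviations of same-numbered HBG1 sgRNA libraries correlated at 0.553, 0.278 and 0.236, above the limit of 0.1. The numbers were therefore used as pairs. Deviations sum to 0 within a group, so these values are not independent, and differently numbered libraries were not compared. Replicate 1 stood apart under both treatments, with a chi-square per gene of 16.5 to 18.6 against replicates 2 and 3. Between replicates 2 and 3 it was 7.91 in rapamycin and 4.74 in DMSO. Pairing of replicates 2 and 3 is therefore not shown. Between guides under rapamycin the correlation of same-numbered libraries was -0.0733, below the limit, so pairing across guides is not shown. Blocked fits used the replicate number.

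The members and lists were chosen with earlier results of these data known. Named are all 10 members, the called genes of each other list (at most the 4 with the largest change), and any gene of the iron sensing and haem synthesis lists. Genes outside the iron sensing and haem synthesis lists that only the blocked fit called were named after their values were seen, and 1 of them is not reported here. Alternatives were DESeq2 1.42.0, limma 3.58.1 voom, other scalings, filters and models, pseudogene sums and each library left out. The additive model among them estimates 1 rapamycin change for both guides. A sum of FTH1 with BEST1 was chosen after seeing the data.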

Additional observations from a re-analysis of the deposited data

How the results depend on the processing

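With the HBG1 sgRNA, rapamycin against DMSO, 1609 genes were called. The count was 3441 with the replicate block. An additive model of guide and treatment over all 9 libraries called 3263 genes, but its rapamycin change is 1 value shared by both guides. With 1 library left out the HBG1 sgRNA count was 664 to 1731, lowest without DMSO replicate 2 (749 without DMSO replicate 3, 693 without rapamycin replicate 3). Of members 2 were called, 1 with DESeq2 and 0 to 2 with 1 library left out. The share of calls that were higher was 40.4%, but 54.9% with upper quartile scaling and 48.0% with library totals; the median of all genes moved from 0.02 to at most 0.06. Between guides under rapamycin 7 genes were called, 13 with DESeq2, 91 with no filter, 11 with the replicate block and 3 to 8 with 1 library left out, lowest without non-targeting rapamycin replicate 1. The interaction called 1 gene, and 0 with DESeq2, with library totals and with a stricter filter, 3 with limma voom, 8 with no filter, 5 with a replicate block within each guide, 3 with a replicate block over all 9 libraries and 0 to 4 with 1 library left out. The interaction could not be computed without the non-targeting DMSO library. Both the block between guides and the block over all 9 libraries used replicate numbers, which did not reach the pairing limit of 0.1 between guides. The replicate block changed no call of a member but that of ABCB10.

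Signs turned only among values that were not called. With 1 library left out, ACO1 ran from -0.20 to 0.017 and SLC11A2 from -0.021 to 0.12 in rapamycin against DMSO. Between guides FLVCR1 ran from -0.16 to 0.033 and SLC25A37 from -0.31 to 0.14. In the interaction the ranges were -0.13 to 0.058 for FLVCR1, -0.0019 to 0.11 for FTH1 and -0.35 to 0.10 for SLC25A37. In the non-targeting sgRNA, which has no test, ABCB10 ran from -0.013 to 0.27 and STEAP3 from -0.15 to 0.051. The replicate block also turned SLC25A37 between guides (0.011) and in the interaction (0.087 within each guide, 0.12 over all 9 libraries). FLVCR1 turned in the interaction too (0.050 within each guide). Pairing across guides is not shown, and the values 0.011 and 0.12 rest on it. With BEST1 reads added the mean FTH1 to FTL ratio per kilobase was 0.399. The cause of these shifts was not tested.

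HMOX1 lies below what this depth can compare. The single non-targeting DMSO library limits every comparison that uses it. The counts of FTH1, which shares exon bases with BEST1, are uncertain without the counting settings. So are those of ABCB10, FTH1 and FTL, which have annotated pseudogenes.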
